A study of Mus musculus with 8 samples.

Results

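The genes described here are Tlr2, Tlr4, Cd14 and Myd88, 4 genes with which phagocytes recognise bacteria. They were followed through 5 of the 45101 probe sets of the deposited table of an Affymetrix mouse array, chosen by identifier: 1419132_AT for Tlr2, 1418162_AT and 1418163_AT for Tlr4, 1417268_AT for Cd14 and 1419272_AT for Myd88. The cells came from mouse bone marrow of wild-type animals and of animals without miR-223, and each of the 4 groups of genotype and day had 2 arrays. Wild-type and miR-223 null day 4 progenitors had 4 days in a SILAC medium, which is made for isotope labelling of proteins, with the growth factors G-CSF (for granulocytes) and SCF (stem cell factor), and the sort took cells with c-Kit and without Gr-1. Wild-type and miR-223 null day 8 neutrophils had 6 days of both factors and a further 42 hours without SCF in the same medium, and here the sort took cells with Gr-1 and without c-Kit. All 4 groups received G-CSF and SCF, but for different times, and SCF was withdrawn only before the day 8 harvest, so the effects of maturation, time in culture and SCF withdrawal cannot be told apart between the days. No label names a bacterial product or other stimulus. The labels used here give neither the strain, age and sex of the animals nor the design of the null allele, and they do not say whether the arrays of a group came from separate cultures, so p-values measure only the spread between these arrays, which may be technical.

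Toll-like receptors are membrane proteins that bind microbial molecules outside the cell or in endosomes and signal through a domain on the inner side. TLR2 recognises bacterial lipoproteins, as a pair with TLR1 or TLR6, and TLR4 recognises lipopolysaccharide of Gram-negative bacteria with its partner MD-2. CD14 is anchored to the outer face of the membrane without a signalling domain of its own and hands lipopolysaccharide and lipoproteins to these receptors. MyD88 is the adaptor inside the cell that most Toll-like receptors and the interleukin-1 receptors recruit, and through IRAK kinases it leads to activation of NF-kappa-B. Neutrophils and monocytes both carry this machinery.

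A mature sequence of the microRNA that the null cells lack is shown first, because miR-223 defines the genotypes compared. RefSeq also lists another mature strand, miR-223-5p of 23 bases, which is not shown. The mature miR-223-3p of RefSeq (GRCm38.p6, chrX:96242884-96242905, plus strand) has 22 bases, and the capitals mark its seed, bases 2 to 8, the stretch with which a microRNA pairs to its targets.
mmu-miR-223-3p: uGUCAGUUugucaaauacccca
No probe set in the table could be assigned to the miR-223 gene, so its absence from the null arrays was not checked here.

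Promoter sequences of Tlr2 and Myd88 were read from the RefSeq table, each of 300 bases, 250 before and 50 after a transcript start. Parts of them are shown, and none of Tlr4 and Cd14, because no promoter sequence of those genes was available there. The Tlr2 sequence belongs to a start that lies 216 bases inside the outer end of the gene in RefSeq. The Tlr2 stretches shown therefore lie within the gene as RefSeq bounds it. The motifs below were searched by their letters on both strands over the 300 bases: the kappa-B consensus of NF-kappa-B, the PU.1 core GGAAGT, the C/EBP motif TTGCNNAA, the interferon-stimulated response element (GAAA, any 2 bases, GAAA), the GC box GGGCGG and the TATA box TATAAA. Capitals mark matches that lie whole within the stretch printed. The first Tlr2 stretch (GRCm38.p6, chr3:83841761-83841790, minus strand) covers bases -182 to -153 from that start and holds a pair of overlapping kappa-B matches, and the second (chr3:83841631-83841660, minus strand) covers bases -52 to -23 and holds a GC box and a PU.1 core. The Myd88 stretch (GRCm38.p6, chr9:119340019-119340268, minus strand) is the 250 bases before its start.
Tlr2 upstream: aggacacctGGGGAATTCCCacacggagcc
Tlr2 near the start: ccggGGGCGGtgctggcgaccgGGAAGTtc
Myd88: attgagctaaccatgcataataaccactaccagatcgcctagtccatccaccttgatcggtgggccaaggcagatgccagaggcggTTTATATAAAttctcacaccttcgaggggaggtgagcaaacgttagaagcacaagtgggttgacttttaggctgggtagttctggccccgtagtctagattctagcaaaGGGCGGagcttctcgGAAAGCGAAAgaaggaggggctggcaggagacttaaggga
In Myd88 the capitals are the TATA box letters on both strands, overlapping, then a GC box, then the interferon-stimulated response element at base -40. The kappa-B letters occurred in Tlr2 (from bases -173, -172 and -8) and not in the Myd88 window, and the interferon-stimulated response element occurred in Myd88 and not in the Tlr2 window. Each of these was in few promoters of the table: 4.5% of the 32851 held the kappa-B consensus and 3.4% the interferon-stimulated response element, against 23.8% for the PU.1 core, 35.7% for the GC box, 13.6% for the TATA box and 10.8% for the C/EBP motif. The PU.1 core lay in both windows, in Tlr2 from bases -30 and 11 (the latter on the other strand) and in Myd88 across the start from base -3. The C/EBP letters lay in neither. A match describes letters only, and no binding was measured in these samples.

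The values are log2 signals per probe set as the authors deposited them. On every array all 5 probe sets lay above 5.51, the median signal over all probe sets without controls, and the lowest of their values was 7.49. Replicate arrays correlated at 0.993 or more over the 22519 probe sets tested, and the array medians lay within 0.0537 of each other. No other probe set could be named, since 0 of the identifiers are in the RefSeq gene table, so neither Kit nor the Gr-1 gene could be looked up to check the sorts. Markers of monocytes, which also express Cd14, Tlr2 and Tlr4, could not be looked up either, and their part in the results was not tested.

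The first comparison, day 8 against day 4 in wild-type cells, asks how these genes change as progenitors become mature neutrophils. All 5 probe sets were called higher in mature neutrophils (limma, adjusted p below 0.05; the call of Tlr4 1418162_AT did not hold in 3 of 17 alternatives), where 35.5% of all tested probe sets passed the test upwards and 41.7% downwards. At all 5 the day 8 arrays lay wholly above the day 4 arrays, as they did at 42.6% of all tested probe sets. The receptor Tlr2 rose most, 10.6-fold. The co-receptor Cd14 rose 5.41-fold and the adaptor Myd88 2.76-fold, while the receptor Tlr4 rose 1.38-fold and 1.68-fold at its probe sets. The median log2 change of the 5 was 1.46, against -0.04 over all 22519. In bulk RNA, a larger share of cells that express a gene and more RNA per cell cannot be told apart.

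Tlr2 signal in wild-type progenitors was 8.41 and 8.72 on the log2 scale on replicates 1 and 2, and in wild-type neutrophils 12.05 and 11.90. The day 8 arrays were both high and the groups were separated by at least 3.17. The log2 change was 3.40 (SE 0.10, 95% interval 3.17 to 3.63, adjusted p = 5.4e-10, n = 2 per group). Only 198 of the 22519 tested probe sets rose by more, so Tlr2 lay among the largest rises of the array. Its progenitor signal already lay well above the median of the array.

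Cd14, the lipopolysaccharide-binding co-receptor, gave 9.89 and 9.81 in wild-type progenitors and 12.35 and 12.22 in wild-type neutrophils. Again every day 8 array was above every day 4 array, by at least 2.33. The log2 change was 2.44 (SE 0.10, 95% interval 2.21 to 2.66, adjusted p = 3.4e-09, n = 2 per group), and 517 probe sets rose by more.

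Myd88, the shared adaptor, gave 10.03 and 10.11 in wild-type progenitors against 11.52 and 11.55 in wild-type neutrophils. The arrays of a group nearly coincided and the groups stood at least 1.41 apart. Its log2 change was 1.46 (SE 0.06, 95% interval 1.32 to 1.60, adjusted p = 4.4e-09, n = 2 per group), with 1575 larger rises. Its SE was small for the array: 4.17% of the tested probe sets had a smaller one.

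Tlr4 moved least of the 4 genes. At 1418162_AT its signal was 7.70 and 7.89 in wild-type progenitors and 8.35 and 8.16 in wild-type neutrophils, groups that stood only 0.27 apart at their nearest arrays. The log2 change was 0.46 (SE 0.13, 95% interval 0.17 to 0.75, adjusted p = 0.0082, n = 2 per group), and it fell short of the test, down to 0.29, in 3 of 17 alternatives given below. At 1418163_AT the signal was 8.14 and 8.34 against 9.01 and 8.96, with both day 8 arrays clearly higher. That log2 change was 0.74 (SE 0.10, 95% interval 0.53 to 0.96, adjusted p = 3.5e-05, n = 2 per group). Rises of this size were common, with 6184 and 3976 probe sets rising by more.

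**Figure D1:**
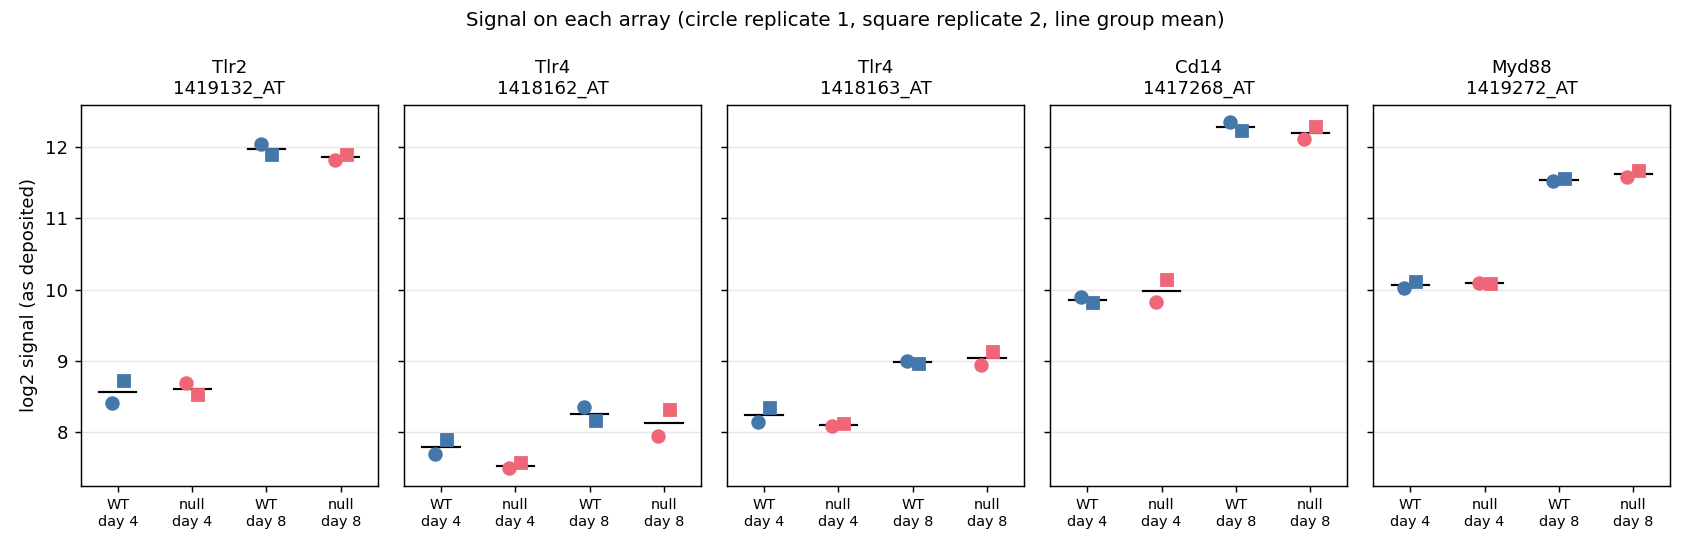
Log2 signal of the 5 probe sets on each of the 8 arrays, by genotype and day; circles are replicate 1, squares replicate 2 and lines the mean of the 2 arrays. In every panel the day 8 arrays lie above the day 4 arrays, by a wide gap for Tlr2, Cd14 and Myd88 and a narrow one for Tlr4 1418162_AT; heights are to be compared within a panel, since probe sets differ in how they hybridise.

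The same comparison in miR-223 null cells rests on the means of 4 other arrays. Its SE, intervals and p-values use the spread over all 8 arrays, as in wild type. All 5 probe sets were again called higher at day 8 (1418162_AT not in 1 of 17 alternatives), where 36% of all tested probe sets passed upwards and 39.9% downwards. The groups of arrays again did not overlap at any of the 5, as at 44.4% of all, and their order by size was that of wild type. Tlr2 rose 9.53-fold, Cd14 4.65-fold, Myd88 2.89-fold and Tlr4 1.51-fold (1418162_AT) and 1.91-fold (1418163_AT). The median log2 change of the 5 was 1.53, against 0.00 over all tested probe sets.

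In null cells Tlr2 gave 8.69 and 8.52 at day 4 and 11.82 and 11.90 at day 8, a log2 change of 3.25 (SE 0.10, 95% interval 3.02 to 3.48, adjusted p = 5.3e-10, n = 2 per group). Cd14 gave 9.82 and 10.14 against 12.11 and 12.29, a log2 change of 2.22 (SE 0.10, 95% interval 1.99 to 2.44, adjusted p = 5.7e-09, n = 2 per group). The day 4 arrays of Cd14 were the most uneven of the 4 groups for this gene, differing by 0.31, more than 94.5% of the tested probe sets did in that group. Myd88 gave 10.10 and 10.08 against 11.58 and 11.67, a log2 change of 1.53 (SE 0.06, 95% interval 1.39 to 1.67, adjusted p = 2.8e-09, n = 2 per group).

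Tlr4 in null cells gave 7.49 and 7.57 at day 4 against 7.95 and 8.31 at day 8 at 1418162_AT, with the widest replicate gap of its 4 groups at day 8 (0.36). The log2 change was 0.60 (SE 0.13, 95% interval 0.30 to 0.89, adjusted p = 0.0017, n = 2 per group). At 1418163_AT it gave 8.09 and 8.12 against 8.95 and 9.13, and the log2 change was 0.93 (SE 0.10, 95% interval 0.72 to 1.15, adjusted p = 5e-06, n = 2 per group). In null cells 305 probe sets rose by more than Tlr2, 809 by more than Cd14 and 1730 by more than Myd88.

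**Figure D2:**
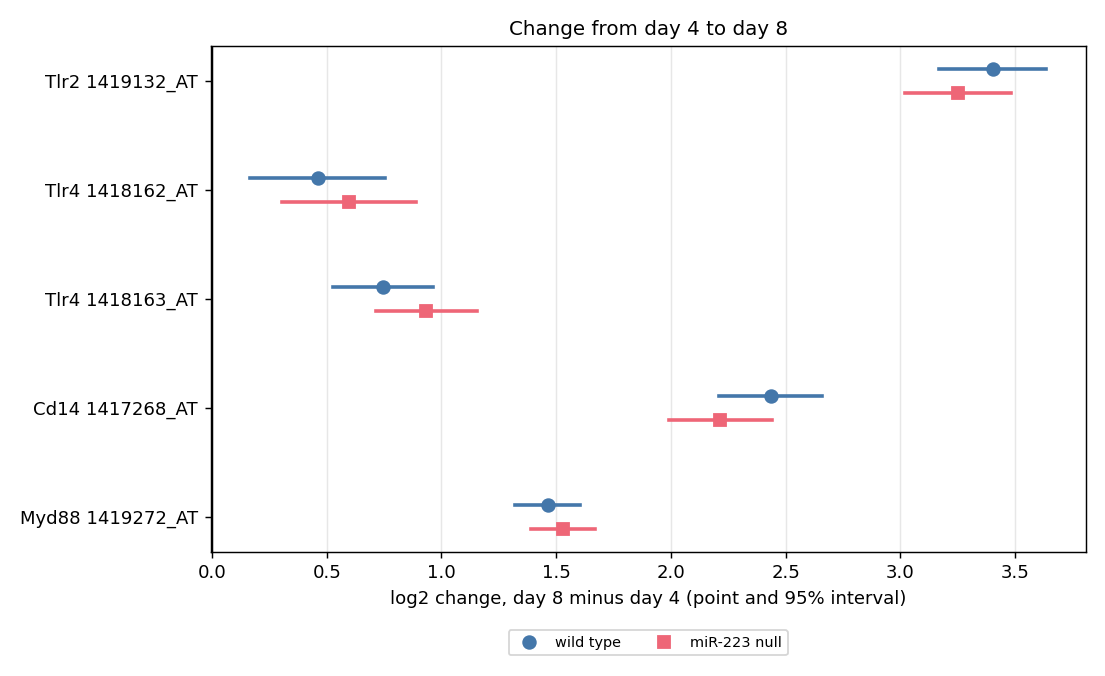
Log2 change from day 4 to day 8 of each probe set in wild-type (circles) and miR-223 null cells (squares), with 95% intervals from the limma fit to 8 arrays. All 10 intervals lie above 0, and those of Tlr2 (3.17 to 3.63 in wild type) do not meet those of any other gene.

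The rises differed in size between the genes by more than the arrays of a group differed. The smallest gap between a day 8 and a day 4 array was 3.13 for Tlr2 (null cells), while the largest gap of any array pair was 2.54 for Cd14, 1.58 for Myd88, and 1.04 and 0.82 for 1418163_AT and 1418162_AT of Tlr4. The smallest gap of Cd14 (1.97) in turn exceeded the largest of Myd88, and the smallest of Myd88 (1.41) the largest of Tlr4. The order Tlr2, Cd14, Myd88, Tlr4 thus held for every pairing of arrays within either genotype. Tlr2, Cd14 and Myd88 were each read through 1 probe set, and array gaps do not measure how probe sets of 1 gene differ. Those of Tlr4 rose by 0.46 and 0.74 in wild type and by 0.60 and 0.93 in null.

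The Tlr4 probe sets differed in how far they rose. Their difference within an array, 1418163_AT minus 1418162_AT, ran from 0.44 to 0.59 in the 4 progenitor samples and from 0.65 to 0.99 in the 4 neutrophil samples, a mean of 0.51 ± 0.07 against 0.82 ± 0.14 (SD, n = 4). Every day 8 array was above every day 4 array in this difference, and how many other pairs of probe sets separate so was not counted. The Tlr4 difference was picked out after its values were seen and is given without a test.

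**Figure D3:**
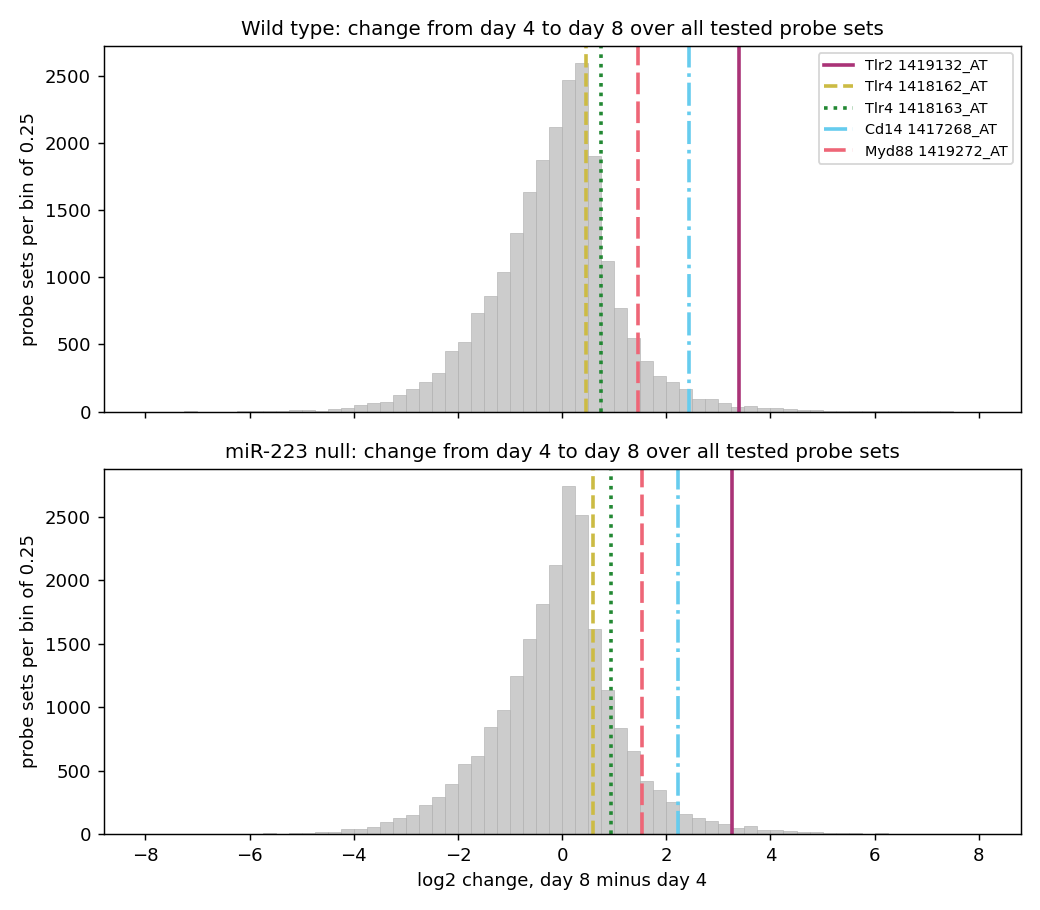
Histograms of the log2 change from day 4 to day 8 over the 22519 tested probe sets, in bins of 0.25, for wild type (top) and miR-223 null (bottom), with a vertical line at each of the 5 probe sets. Tlr2 and Cd14 lie in the thin upper tail, Myd88 on the upper shoulder (1.46 and 1.53) and Tlr4 within the bulk of the distribution.

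Likeness of pattern was measured as the root mean square difference between log2 profiles over the 8 arrays, each centred on its own mean. It is a description that rests mostly on the day. The Tlr4 probe sets lay 0.18 from each other, with 1484 of 22518 other probe sets nearer to 1418162_AT and 2052 nearer to 1418163_AT. Cd14 lay 0.43 from Myd88 and 0.53 from Tlr2, with 5.18% and 7.36% of the other probe sets nearer to Cd14. Myd88 lay closer to 1418163_AT of Tlr4, at 0.34, than to Cd14. Of the other probe sets, 11.4% were nearer to Myd88 than 1418163_AT was, and 17.2% were nearer to it than Cd14 was. Tlr2 lay 1.41 from 1418162_AT and 1.25 from 1418163_AT of Tlr4, with 24.5% and 16% of the other probe sets nearer to Tlr2. Its nearest probe set of any kind was at 0.12 and the median of all at 1.68. The nearest probe sets are not named, since the files do not pair them with genes.

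The day comparison is relative to how the arrays were scaled. Scaled to the hybridization controls (bacterial and phage transcripts added to each sample before hybridization), the median change over all tested probe sets was -0.21 in wild-type and -0.35 in null cells. Under that scaling Tlr2 still rose by 3.24 and 2.90 on the log2 scale, Cd14 by 2.27 and 1.87, Myd88 by 1.30 and 1.18, and 1418163_AT of Tlr4 by 0.58 in both (wild type first). The 1418162_AT rise no longer passed the test, at 0.29 in wild type (adjusted p = 0.081) and 0.25 in null (adjusted p = 0.14). Its call in wild type also rested on single arrays: leaving out wild-type day 4 replicate 1 gave 0.37 (adjusted p = 0.055), and leaving out wild-type day 8 replicate 1 gave 0.36 (adjusted p = 0.072). Over the 17 alternatives its adjusted p ran from 0.00024 to 0.081. In null its adjusted p ranged from 0.00015 to 0.14. A measure of RNA integrity and labelling also moved with the day: the 3' minus the 5' control probe set of beta-actin was 0.36 to 0.44 in progenitors and 0.10 to 0.17 in neutrophils on the log2 scale. The same measure for Gapdh was smaller in size but also lower on every neutrophil array, at -0.02 to 0.05 in progenitors and -0.08 to -0.03 in neutrophils. The part of either in the rises was not tested.

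The second comparison, null against wild type, asks whether loss of miR-223 alters these genes. No difference was detected at either stage. In mature neutrophils 0 of the 5 probe sets were called by limma, where 5.31% of all tested probe sets were called, and 0 had an unadjusted p below 0.05. In progenitors 0 of 5 were called, where 2.72% of all were, and again 0 had an unadjusted p below 0.05. The intervals below give the differences that these arrays leave possible.

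At day 8 the null neutrophils differed from wild type by -0.11 for Tlr2 on the log2 scale (95% interval -0.34 to 0.12, adjusted p = 0.61, n = 2 per group), between 0.787 and 1.09 times the wild-type signal. Cd14 differed by -0.09 (-0.31 to 0.14, adjusted p = 0.70), between 0.805 and 1.10 times. Myd88 differed by 0.09 (-0.05 to 0.23, adjusted p = 0.49), between 0.965 and 1.17 times, the narrowest interval. Tlr4 differed by -0.12 (-0.42 to 0.17, adjusted p = 0.67) at 1418162_AT and by 0.05 (-0.17 to 0.27, adjusted p = 0.83) at 1418163_AT, opposite in sign. All 5 intervals hold 0, and the signs were mixed, with 2 of 5 higher in null. Tlr2 and Myd88 had no overlap between the genotypes, but 51% of all tested probe sets had none, and the nearest arrays of Tlr2 differed only in the fourth decimal.

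At day 4 the differences were 0.04 for Tlr2 (95% interval -0.19 to 0.27, adjusted p = 0.89, n = 2 per group), 0.13 for Cd14 (-0.09 to 0.36, adjusted p = 0.55) and 0.02 for Myd88 (-0.12 to 0.16, adjusted p = 0.90). Tlr4 had the largest of the day 4 differences, lower in null at both probe sets: -0.26 (-0.55 to 0.03, adjusted p = 0.33) at 1418162_AT and -0.14 (-0.36 to 0.08, adjusted p = 0.52) at 1418163_AT. Both null arrays lay below both wild-type arrays at these probe sets, as did 27.8% of all tested probe sets. Of all tested probe sets, 83.0% had a smaller absolute difference at day 4 than 1418162_AT. Neither difference passed the test.

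**Figure D4:**
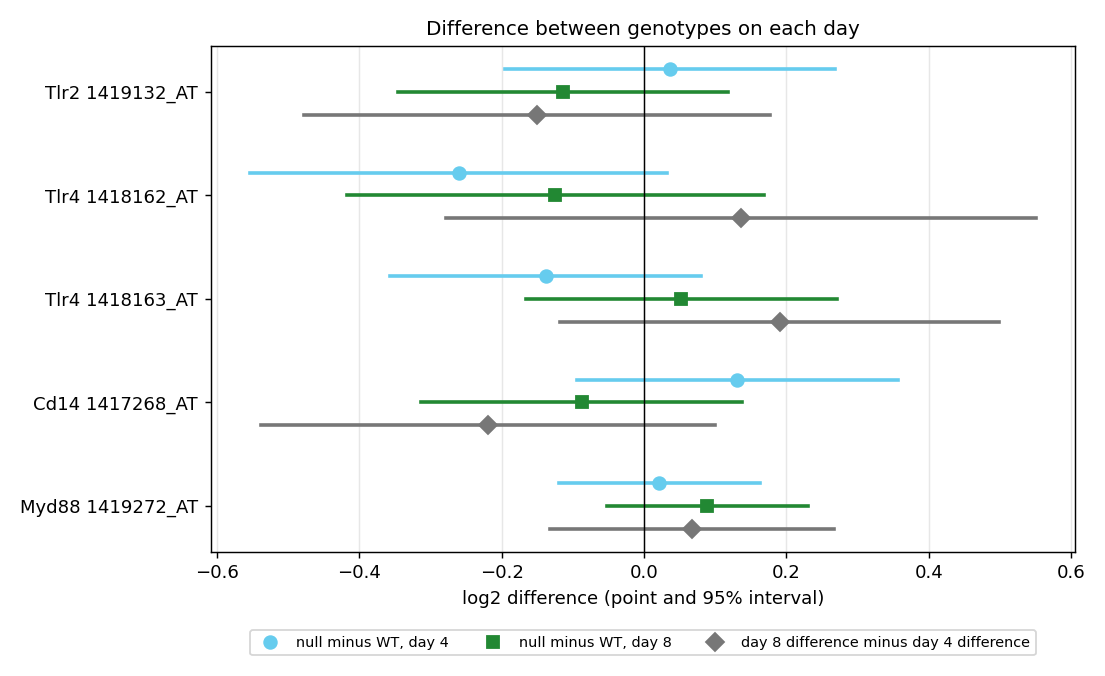
Log2 difference of null from wild type at day 4 (circles) and day 8 (squares), and the day 8 difference minus the day 4 difference (diamonds), with 95% intervals from the limma fit to 8 arrays. Every interval crosses 0; the widest are those of Tlr4 1418162_AT and the narrowest those of Myd88.

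Whether the genotype difference itself changed with maturation was asked by the interaction term. It was called for 0 of the 5 probe sets, against 1.66% of all tested, and 0 had an unadjusted p below 0.05. It was -0.15 for Tlr2 (SE 0.15, 95% interval -0.48 to 0.18, adjusted p = 0.67), -0.22 for Cd14 (SE 0.14, -0.54 to 0.10, adjusted p = 0.50) and 0.07 for Myd88 (SE 0.09, -0.13 to 0.27, adjusted p = 0.77), with n = 2 per group. At Tlr4 it was 0.14 (SE 0.19, -0.28 to 0.55, adjusted p = 0.78) at 1418162_AT and 0.19 (SE 0.14, -0.12 to 0.50, adjusted p = 0.55) at 1418163_AT. The intervals for Tlr2 and Cd14 reach at most 0.54 in size, against rises of 2.22 to 3.40 from day 4 to day 8. For Tlr4 at 1418162_AT the interval reaches 0.55, above its rise of 0.46 in wild type and below that of 0.60 in null. A genotype effect near the size of the whole rise thus remains possible there. At 1418163_AT the interval reaches 0.50, against rises of 0.74 in wild type and 0.93 in null.

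By level, the 4 groups fell into the same order for each gene only as far as the day: both day 8 groups were above both day 4 groups at all 5 probe sets. Within a day the group means of Tlr2 were 8.57 ± 0.22 (wild type) and 8.61 ± 0.12 (null) at day 4 and 11.97 ± 0.11 and 11.86 ± 0.05 at day 8 (SD, n = 2). Those of Cd14 were 9.85 ± 0.06 and 9.98 ± 0.22, then 12.29 ± 0.09 and 12.20 ± 0.12. Those of Myd88 were 10.07 ± 0.06 and 10.09 ± 0.01, then 11.53 ± 0.02 and 11.62 ± 0.06. The Tlr4 means were 7.80 ± 0.13 and 7.53 ± 0.06, then 8.26 ± 0.14 and 8.13 ± 0.25 at 1418162_AT, and 8.24 ± 0.14 and 8.10 ± 0.02, then 8.98 ± 0.03 and 9.04 ± 0.13 at 1418163_AT. Wild type and null, the neighbours within a day, did not pass the test for any gene, and the days passed it within each genotype. Between wild-type progenitors and null neutrophils, the neighbours across the days at 1418162_AT, no test was run. Their ranges of mean ± SD overlapped, while their arrays, at 7.70 and 7.89 against 7.95 and 8.31, did not.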

How the data were processed

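The table deposited by the authors holds 1 log2 signal per array for 45101 Affymetrix probe sets. That the base is 2 was judged from the range of the values. GCOS is named in the submitters' processing notes. How probes were summarised, corrected for background and normalized is not stated in those notes or labels, and these steps can shrink or widen changes of dim probe sets. Of 45037 probe sets without controls, the 22519 with a mean at or above the median (5.51) were tested. One model with the 4 group means was fitted to all 8 arrays with limma 3.58.1 (lmFit, eBayes with an intensity trend; R 4.3.3), leaving 4 residual degrees of freedom. Tests were two-sided, with Benjamini-Hochberg adjustment over all tested probe sets and a threshold of 0.05. With 2 arrays against 2, an exact permutation test cannot give a p below 0.333. The number of arrays limits the precision. The steps were tested on simulated data with known changes and independent noise, which cannot show the effect of array scaling or normalization. The genes and lists were chosen with earlier results of these data known. The 5 pathway and 10 marker lists could not be tested without probe set names. Named probe sets are the 5 members; the rule's other parts (genes of the pathway lists, nearest patterns) needed gene names and gave none. Alternatives were other filters, scalings, no trend, a replicate block, fewer arrays and leaving out each array.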

Additional observations from a re-analysis of the deposited data

How the results depend on the processing

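Of the 10 changes from day 4 to day 8, 8 were called in all 17 alternatives, with an adjusted p of 0.00067 or less. The exception was 1418162_AT of Tlr4. Scaling to the hybridization controls put the median change over all tested probe sets at -0.21 in wild type and -0.35 in null. Under it the call of 1418162_AT was lost in wild type (0.29) and in null (0.25). Leaving out 1 array gave 0.36 to 0.56 in wild type, with the call lost without replicate 1 of either wild-type group. None of the 10 genotype differences was called in any of the 17 alternatives by limma (lowest adjusted p 0.25), and none of the 5 interactions in 16 (lowest 0.21). Signs of these small values turned in 7 and 3 of them, for Myd88 at day 8 and in the interaction only on scaling to the hybridization controls, which shifts whole arrays. Scaled to the hybridization controls, the day 8 difference became -0.040 for 1418163_AT and -0.0033 for Myd88, and the interaction became -0.048 for 1418162_AT and -0.12 for Myd88. Leaving out 1 array moved the day 4 difference between -0.12 and 0.19 for Tlr2, between -0.026 and 0.29 for Cd14 and between -0.020 and 0.064 for Myd88. It moved the day 8 difference between -0.30 and 0.055 for 1418162_AT, between -0.038 and 0.14 for 1418163_AT and between -0.18 and 0.00072 for Cd14, and the interaction between -0.31 and 0.0056 for Tlr2 and between -0.043 and 0.31 for 1418162_AT. Sizes also moved by over 1.5 times where the sign held, among them the day 4 difference of 1418163_AT (-0.24 to -0.037), the day 8 difference of Tlr2 (-0.19 to -0.037) and the interaction of Cd14 (-0.38 to -0.061).

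The counts of all probe sets called, the background for these genes, varied more. At the stricter filter (75th percentile), which tests fewer probe sets, 9601 (wild type) and 9673 (null) changed with day, against 17374 and 17085. For null against wild type at day 8 the count was 1195, but 694 scaled to the hybridization controls, 747 without the intensity trend and 355 to 1691 on leaving out 1 array. At day 4 it was 613, but 222 without the trend, 98 with only the arrays compared and 129 to 1674 on leaving out 1 array, the highest without wild-type day 4 replicate 2. For the interaction it was 373, but 198 with cyclic loess, 209 with quantile normalization, 124 on the scale of the hybridization controls, 129 without the trend and 48 to 893 on leaving out 1 array. The cause of these shifts was not tested.

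With the replicate number as a block, no call of the 5 probe sets changed, and 1225, 630 and 319 probe sets were called at day 8, at day 4 and for the interaction. Differences between replicates 1 and 2 correlated between groups at -0.05 to 0.22, so the numbers were not taken to pair the arrays.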
